A study of Homo sapiens with 6 samples.

Results

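The first 20 Mb of chromosome 19 (hg38), from position 1 to 20000000, were studied for open chromatin in the neuroblastoma cell line SK-N-AS. The members are the ATAC-seq peaks that lie there, a segment chosen by the percentile ranks of −log10 p in resistant against naïve cells of these same libraries. Naïve cells had 8319 and 7157 such peaks out of 154926 and 115694, R1 cells 7479 and 6876 out of 340558 and 292030, and R2 cells 2471 and 2683 out of 67558 and 73484. Its border at 20 Mb comes from those ranks too. Differences between resistant and naïve cells inside the segment are therefore given as descriptions, with no test. The difference between R1 and R2 was not used to set the border, and it was tested.

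In ATAC-seq the Tn5 transposase cuts chromatin where it is open, and a peak marks a stretch cut more often than the background. SK-N-AS xenografts were grown in immunodeficient mice. The naïve cells came from vehicle-treated tumors, and R1 and R2 from tumors that had relapsed after earlier cycles of indisulam and were taken while another cycle was given. Tumor pieces were digested, adherent cells were expanded in culture, and 2 libraries of 100000 cells were made of each cell type with no drug on the cells. The labels do not say whether the 2 libraries of a type are separate cultures, so p-values measure only the spread between these libraries. R1 and R2 are 1 derived line each. Depth was unequal: the background rate recovered from each list was 1.35 and 2.29 tags per window for naïve cells, 5.43 and 7.94 for R1 cells, and 0.85 and 0.899 in R2 cells. Strengths were compared as percentile ranks within a library for that reason. A rank carries both how open each DNA copy is and how many copies the cells hold, and these cannot be told apart in peak lists. Single lists had a promoter peak at 5 or 6 of 7 adrenergic neuroblastoma genes, 3 of them in all 6 lists, and at 7 to 9 of 9 mesenchymal genes, 7 of them in all 6. Of 7 markers of blood, liver, epithelium and endothelium, between 1 and 4 had a promoter peak in a list and 1 had one in all 6, while ALB, CD3E and PTPRC had none in any.

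Chromosome 19 is the most gene-dense human chromosome, and its DNA is rich in G and C. Its short arm holds housekeeping genes, many in pairs that share a start region, next to clusters of KRAB zinc finger genes and of olfactory receptor genes. Open promoters in such DNA are often CpG islands, while distal open regions can be enhancers or insulator sites bound by CTCF. DCAF15, which lies in the segment, is the receptor of the ubiquitin ligase that indisulam directs to the splicing factor RBM39.

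The sequences below are shown because the results return to them. All are hg38, the first promoter line is read from the plus strand and the second from the minus strand, and the others are 151 bp of the plus strand centred on a peak summit. Capitals mark motif letters found on either strand. The DCAF15 line is the 150 bp before the gene's start (chr19:13952359-13952508, RefSeq GRCh38.p14) with an ETS match, and the JUND line the 150 bp before that of JUND (chr19:18281623-18281772, RefSeq GRCh38.p14) with SP and KLF matches. KDM4B (chr19:4968673-4968823) is 1 of the strongest promoters in all libraries. MED16 (chr19:878392-878542) is part of the strongest distal domain, where capitals mark E-boxes inside a repeated unit, and CDC34 (chr19:525011-525161) is another strong distal region of repeats. MYO9B (chr19:17079602-17079752) had the lowest shift of the members and holds a CTCF core. ZNF846 (chr19:9785595-9785745) ranked higher in resistant cells and holds repeated SP and KLF matches.
DCAF15: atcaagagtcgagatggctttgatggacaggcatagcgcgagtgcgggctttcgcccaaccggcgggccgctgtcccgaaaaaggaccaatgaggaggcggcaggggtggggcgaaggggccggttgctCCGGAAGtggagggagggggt
JUND: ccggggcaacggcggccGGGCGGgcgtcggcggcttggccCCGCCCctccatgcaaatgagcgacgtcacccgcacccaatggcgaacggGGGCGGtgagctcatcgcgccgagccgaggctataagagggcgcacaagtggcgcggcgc
KDM4B: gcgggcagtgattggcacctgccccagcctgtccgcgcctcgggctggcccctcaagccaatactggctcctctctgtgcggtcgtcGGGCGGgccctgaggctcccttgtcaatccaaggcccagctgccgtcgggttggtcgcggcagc
MED16: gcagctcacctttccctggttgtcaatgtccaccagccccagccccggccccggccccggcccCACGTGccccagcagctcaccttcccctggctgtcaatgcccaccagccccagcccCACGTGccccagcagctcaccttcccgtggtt
CDC34: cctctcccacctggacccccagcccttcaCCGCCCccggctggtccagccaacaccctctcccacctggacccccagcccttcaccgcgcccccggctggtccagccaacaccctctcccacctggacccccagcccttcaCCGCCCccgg
MYO9B: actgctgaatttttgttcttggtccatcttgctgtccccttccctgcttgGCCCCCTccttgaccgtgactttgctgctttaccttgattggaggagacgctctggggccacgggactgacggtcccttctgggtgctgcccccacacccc
ZNF846: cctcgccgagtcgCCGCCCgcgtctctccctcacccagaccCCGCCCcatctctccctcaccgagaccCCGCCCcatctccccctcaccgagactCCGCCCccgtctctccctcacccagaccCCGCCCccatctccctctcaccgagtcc

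The segment held a larger part of the open chromatin of naïve cells than of resistant cells. Of all peaks in a list it held 5.37% (95% Wilson interval 5.26 to 5.48%) and 6.19% (6.05 to 6.33%) in naïve cells, 2.20% (2.15 to 2.25%) and 2.35% (2.3 to 2.41%) in R1 cells, and 3.66% (3.52 to 3.8%) and 3.65% (3.52 to 3.79%) in R2 cells. Intervals cover counting error only. Both naïve libraries lay above all 4 resistant ones. At equal list length, among the 20000 strongest peaks of each library, the share was 6.15 and 6.85% in naïve cells, 2.52 and 2.60% in R1 cells, and 2.78 and 2.74% in R2 cells. Of the length covered by peaks it held 7.46 and 7.91% in naïve cells, 2.89 and 3.02% in R1 cells, and 3.48 and 3.47% in R2 cells. The background rates of R1 are above those of naïve cells and those of R2 below, and the part of depth in these shares was not tested.

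**Figure D1:**
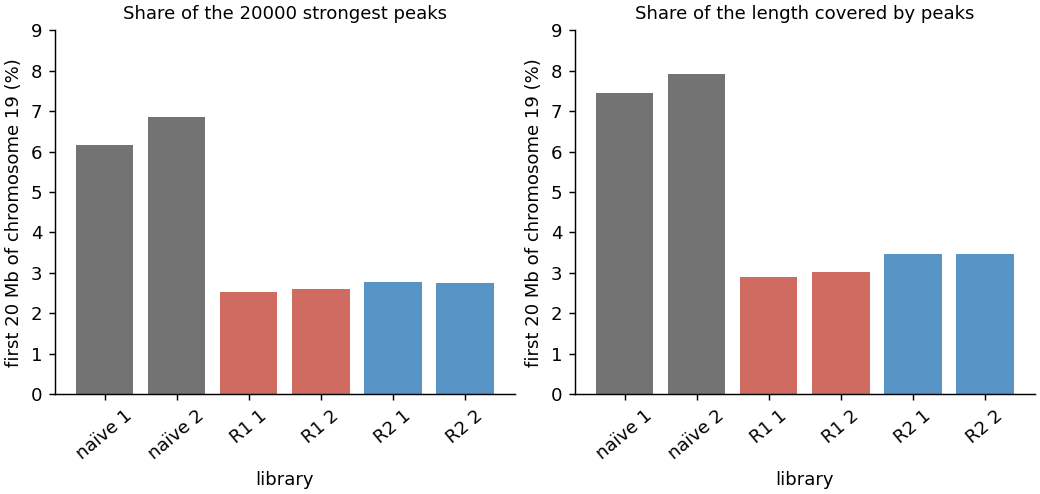
Each bar is 1 library, and the vertical axes give the percent of the 20000 strongest peaks (left) and of the length covered by peaks (right) that lie in the first 20 Mb of chromosome 19. The naïve bars stand at 6.15 and 6.85% on the left, and the resistant bars between 2.52 and 2.78%.

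The covered length itself did not separate naïve cells from R1. Peaks covered 6.46 and 4.6 Mb of the segment in naïve cells, 7.12 and 6.10 Mb in R1 cells, and 0.948 and 1.04 Mb in R2 cells. R1 thus covered about as much of the segment as naïve cells, although R1 covered far more of the genome, with 246 and 202 Mb against 86.7 and 58.1 Mb. Within 1000 bp of a transcription start lay 26.6 and 31.1% of the segment's peaks in naïve cells, 25.6 and 27.6% in R1 cells, and 46.3 and 45.4% in R2 cells. Over whole lists the promoter share was 26.3 and 30.9% in naïve cells, 16.5 and 18.2% in R1 cells, and 39.2 and 38.0% in R2 cells. In naïve cells the segment was close to the whole list in this respect, and in both resistant types the promoter share of the segment was the higher of the pair.

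To compare single regions, those of the first R2 list that overlap a peak of every other list were ranked within each library by −log10 p, as a percentile in which 100 is the strongest. There were 36449 in the genome and 1418 in the segment, 764 at promoters and 654 distal. These regions passed only where the shallow R2 lists had a peak, so they are the stronger part of the segment. The median rank of the members was 68.1 in both naïve libraries, 30.5 and 30.3 in R1 cells, and 41.5 and 34.0 in R2 cells. The median shift of the mean rank, resistant minus naïve, was -24.6 points, with -27.1 for R1 and -22.2 for R2, whereas the median over all 36449 regions was -0.44. On the log2 scale of pileup over background, centred on all regions, the shift was -0.54, a naïve level 1.45-fold that of resistant cells, with -0.66 for R1 and -0.40 for R2.

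In 791 of the 1418 members (55.8%) all 4 resistant libraries ranked below both naïve ones, beside 12.8% of all compared regions. In 9 members (0.635%) all 4 ranked above, beside 12.7%. The mean rank was lower in resistant cells in 1355 members (95.6%), beside 51.5% of all compared regions. Because these ranks set the border, the counts describe the segment and carry no further weight. In the deeper libraries 1 wide peak often spanned several members: the 1418 members drew on 921 and 1043 distinct peaks in naïve cells, 866 and 893 in R1 cells, and 1418 and 1305 in R2 cells.

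Overlapping peaks of all lists were therefore also merged, and 942 merged members with a peak in every list were left of 24147 in the genome. Their median rank was 61.9 and 65.8 in naïve cells, 33.5 and 35.1 in R1 cells, and 40.2 and 37.9 in R2 cells. The shift was -21.7, with -22.8 for R1 and -20.6 for R2. The difference between the 2 libraries of a type had a median of 7.47 points per member for naïve cells, 4.85 for R1 and 10.9 for R2, less than the shift in each case. Of the merged members, 648 (68.8%) ranked lower in all 4 resistant libraries, beside 14.9% of all merged regions, and 5 ranked higher in all 4, beside 12.7%. Both R1 libraries lay below both naïve ones in 821 (87.2%), beside 31.3%, and both R2 libraries in 691 (73.4%), beside 23.9%. In the first naïve library 35.0% of the merged members had a rank over 75 and 7.43% a rank up to 25. In the first R1 library 11.3% were over 75 and 37.8% at 25 or lower, and in the first R2 library 18.2 and 37.4%.

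**Figure D2:**
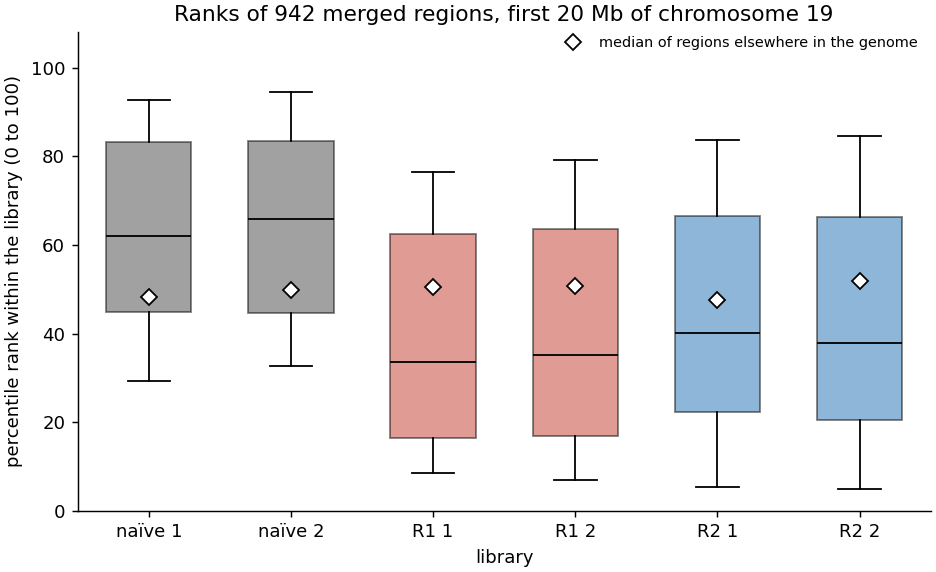
Boxes give the quartiles and median of the percentile rank (0 to 100, vertical axis) of the 942 merged regions of the segment in each library, whiskers the 10th and 90th percentiles, and diamonds the median of regions elsewhere in the genome. The naïve medians of 61.9 and 65.8 lie above the diamonds, and the resistant medians, from 33.5 to 40.2, lie below them.

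Promoters and distal regions both ranked lower in resistant cells. The median shift was -22.0 at the 764 promoter members and -28.8 at the 654 distal ones, and -18.4 and -26.0 at the 511 and 431 merged regions of these kinds. Distal members had a median rank of 60.8 and 60.7 in naïve cells, 19.6 and 20.2 in R1 cells, and 30.3 and 24.0 in R2 cells. Promoter members had 75.1 and 76.3 in naïve cells, 45.8 and 46.0 in R1 cells, and 41.5 and 51.3 in R2 cells. On the log2 pileup scale the gap between the kinds was smaller, with -0.49 at promoters and -0.58 at distal regions. Ranks are compressed near the top, where promoters lie. No difference between the kinds was tested.

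The lower rank ran along the whole segment. In all 20 bins of 1 Mb, with 13 to 109 merged regions each, the median shift was negative for R1 (-31.8 to -16.6) and for R2 (-28.3 to -12.4). It was most negative from 0 to 1 Mb at -29.8, from 3 to 4 Mb at -29.1, and from 13 to 14 Mb at -28.3, the bin that holds DCAF15. It was least negative from 8 to 9 Mb at -13.8 and from 10 to 11 Mb at -14.9. R1 lay further below naïve than R2 did in 14 of the 20 bins. Merged regions needed a peak in every list, so R2 was ranked only where its shallow lists had a peak. The median of R1 minus R2 over the merged members was -2.27, beside 1.30 over all merged regions. The order of R1 and R2 in the bins was not tested. In 19 of the 20 bins the first naïve library had more peaks than the first R1 library, whose list is longer. At the border itself the last 5 merged regions inside, from 19667613 to 19776998, had shifts of -23.9, 19, -14.2, -37.7 and -6.09. The first 5 outside, from 21020260 to 21359451, all promoters, had -14.4, 15.9, -5.95, -22.2 and -14.2. The ranks therefore show no step at exactly 20 Mb, and no compared region lay between 20 and 21 Mb.

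**Figure D3:**
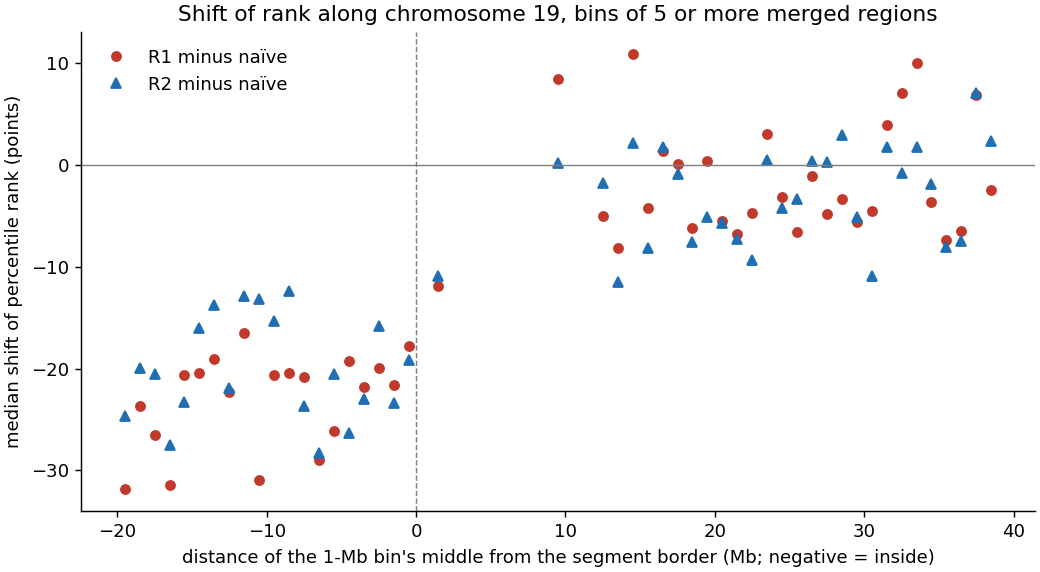
Each point is the median shift of rank, R1 or R2 minus naïve (vertical axis, percentile points), in a 1-Mb bin with at least 5 merged regions, against the distance of the bin's middle from the border (horizontal axis, Mb). All 20 bins inside the segment lie between -31.8 and -12.4, and the bins outside scatter nearer to 0.

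Over the rest of chromosome 19 the 676 merged regions had a median shift of -3.67. Their median ranks were 51.3 and 54.4 for naïve cells, 52.7 and 51.5 in R1 cells, and 47.5 and 51.8 in R2 cells, so the groups overlapped. Chromosome 7 from 120 to 140 Mb, another stretch that ranked lower in resistant cells, had -16.2 over 125 merged regions, with -17.2 for R1 and -14.0 for R2, and 56.8% of its regions ranked lower in all 4 resistant libraries. The first 30 Mb of chromosome 1, also rich in genes, had -3.79 over 769 merged regions, with 18.6% lower in all 4. Over all merged regions that share was 14.9%. These differences from the segment were not tested, since the segment was picked for its shift.

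Of 606 protein-coding genes with a start in the segment, 559 and 560 had a promoter peak in the naïve lists, 553 and 559 in R1 cells, and 472 and 482 in R2 cells. That is 92.2 and 92.4% of the genes in the naïve lists, beside 73.8 and 70.8% over the genome. In R1 it is 91.3 and 92.2%, beside 84.5 and 83.3%, and in R2 77.9 and 79.5%, beside 65.1 and 66.2%. Naïve and R1 lists thus had promoter peaks at nearly the same number of genes in the segment, whereas over the genome R1 had them at more genes. The ranks of the segment's promoters differed. A promoter region found in all 6 lists was present for 407 genes, on 342 distinct merged regions, since neighbours can share 1. In such a merged region the peak of a list can lie more than 1000 bp from the gene's start. The median shift over these genes was -14.0 points, or -0.39 on the log2 pileup scale, and 272 (66.8%) ranked lower in all 4 resistant libraries, beside 11.6% of 11138 genes of the genome.

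Genes of the ubiquitin system were led by DCAF15 (ENSG00000132017.11, chr19:13952509-13961449, plus strand). Its promoter region (chr19:13951502-13954823), shared with PODNL1, ranked 96.9 and 96.4 in naïve cells, 78.3 and 87.4 in R1 cells, and 86.9 and 97.6 in R2 cells. The pileups were 72 and 47 tags in naïve libraries, 176 and 142 in those of R1, and 25 and 43 in R2 cells, which are not scaled for depth. Both R1 libraries lay below both naïve libraries, while the second R2 library lay above them, so R2 and naïve cells overlapped. DDA1, a partner in the same ligase, ranked 92.3 and 84.8 in naïve cells, 73.6 and 67.4 in R1 cells, and 83.7 and 62.1 in R2 cells, with all resistant values below both naïve ones. KEAP1, the adaptor that directs NRF2 to degradation, ranked 96.0 and 96.7, then 84.7 and 86.5 in R1 cells, and 81.7 and 73.2 in R2 cells, again without overlap. The lowest shift of the list was at CDC34, a ubiquitin-conjugating enzyme, with ranks of 75.6 and 74.0 in naïve cells, 25.1 and 27.0 in R1 cells, and 5.36 and 11.7 in R2 cells. The R2 ranks of CDC34 rest on 8 and 9 tags. All 12 genes of the list had a promoter region in all libraries, 8 (66.7%) ranked lower in all 4 resistant ones, beside 66.8% of the segment's genes, and the median shift was -13.6, close to the -14.0 over all genes of the segment.

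Splicing and RNA-binding genes had high ranks in all libraries, with a list median of 90.3 in naïve and 74.2 in resistant cells. PTBP1, a repressor of exon inclusion, ranked 93.6 and 96.7 in naïve cells, 84.9 and 85.6 in R1 cells, and 92.2 and 91.9 in R2 cells. SF3A2, a component of the U2 snRNP, ranked 91.4 and 97.2 in naïve cells, 77.2 and 82.0 in R1 cells, and 74.3 and 73.2 in R2 cells, at a region shared with PLEKHJ1. HNRNPM, a regulator of alternative splicing, ranked 84.1 and 83.5, then 79.6 and 78.3 in R1 cells, and 77.2 and 51.8 in R2 cells. In all 3 genes every resistant value was below both naïve ones. SUGP1, which takes part in branch site recognition, overlapped between groups, with 66.4 and 91.1 in naïve cells, 44.6 and 46.9 in R1 cells, and 53.7 and 76.0 in R2 cells, at a region shared with MAU2. Of the 20 listed genes 17 (85.0%) ranked lower in all 4 resistant libraries, beside 66.8% of the segment's genes, and the median shift was -12.0, with LSM7 lowest at -45.3. SAFB and SAFB2 have the same values and are counted for each.

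Among chromatin genes, SMARCA4, the ATPase of the SWI/SNF remodeller, overlapped, with 78.5 and 86.1 in naïve cells, 84.0 and 81.6 in R1 cells, and 74.3 and 66.3 in R2 cells. DNMT1, the maintenance DNA methyltransferase, overlapped as well, because the naïve libraries were at 75.7 and 93.3 while R1 had 74.3 and 70.3 and R2 71.0 and 76.0. Of 16 chromatin genes with a region in all lists, out of 17 listed, 8 (50%, beside 66.8%) ranked lower in all 4 resistant libraries, with a median shift of -11.1.

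Of the sequence-specific factors, the merged regions at the AP-1 genes JUNB and JUND kept high ranks. JUND had 96.5 and 97.4 in naïve cells, 91.6 and 91.3 in R1 cells, and 88.2 and 93.4 in R2 cells. JUNB had 95.8 and 97.0, then 79.1 and 83.4 in R1 cells, and 79.6 and 90.9 in R2 cells, although in the first naïve library the summit of the wide peak lay more than 1000 bp from its start. These ranks are of the strongest peak in the merged region (chr19:12788428-12793191). In the second R2 library that region also holds a peak at HOOK2 (chr19:12788472-12790523), which ends before the JUNB start at 12791486. Its fold of 15.8 fits the 29 tags behind 90.9, so that rank is not shown to be of the JUNB promoter. NFIX, a nuclear factor I gene active in neural and muscle development, had among the most negative shifts of any named gene at -45.8, with 66.4 and 58.5 in naïve cells, 13.5 and 19.8 in R1 cells, and 12.8 and 20.4 in R2 cells. The groups did not overlap for any of the 3 genes. KLF2, a Krüppel-like factor, had a shift of -42.5 and LYL1, a helix-loop-helix factor, one of -45.6. LYL1 had a promoter peak in only 4 lists, so part of its ranks come from peaks further from its start. Of 14 factors with a region, out of 16 listed, 13 (92.9%, beside 66.8%) ranked lower in all 4 resistant libraries, and NFIC, at -1.72, did not. MEF2B and RFXANK have the same values and are counted for each. The median was -12.9.

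**Figure D4:**
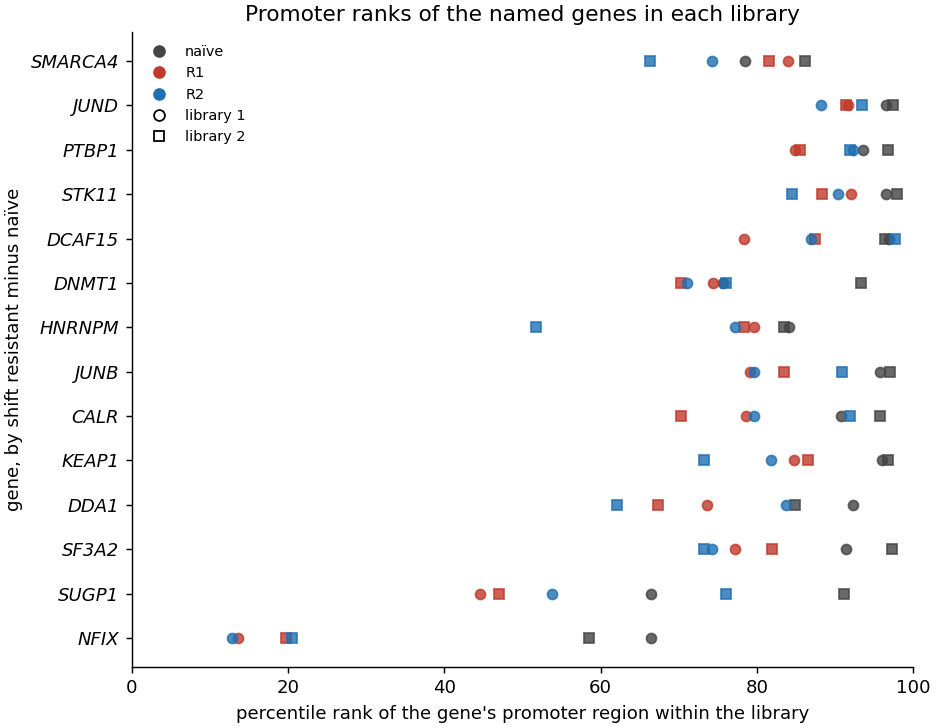
Each row is a gene and each point the percentile rank (horizontal axis, 0 to 100) of its promoter region in 1 library, with circles for library 1 and squares for library 2, ordered by the shift of resistant against naïve cells. JUND and PTBP1 stay above 84 in every library, while NFIX lies at 66.4 and 58.5 in naïve cells and between 12.8 and 20.4 in resistant cells.

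Signalling and cancer genes held an exception, JAK3. STK11, the tumor suppressor kinase that activates AMPK, ranked 96.5 and 97.9 in naïve cells, 92.0 and 88.3 in R1 cells, and 90.4 and 84.5 in R2 cells, without overlap. JAK3, a kinase of cytokine receptors, ranked higher in all 4 resistant libraries, with 41.2 and 38.8 in naïve cells, 54.3 and 57.1 in R1 cells, and 79.6 and 51.8 in R2 cells. TYK2, a kinase of the same family, had a shift of -13.4. Of 17 genes with a region, out of 20 listed, 11 (64.7%, beside 66.8%) ranked lower in all 4 resistant libraries and JAK3 higher, with a median of -11. NOTCH3, a receptor linked to mesenchymal neuroblastoma cells, and CACNA1A, a neuronal calcium channel, had a promoter peak in 5 lists each and not in the second R2 list. Neither had a merged promoter region with a peak in all lists, so no shift is given for them.

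Of 12 neuronal genes with a region in all lists, out of 18, 9 (75%, beside 66.8%) ranked lower in all 4 resistant libraries. The median shift was -18.4 rank points, the most negative of the lists, but on the log2 pileup scale it was -0.42, less negative than the -0.46 of signalling and the -0.44 of splicing genes. STXBP2, a syntaxin-binding protein of vesicle fusion, had -36.9, and NCAN, the neural proteoglycan neurocan, -30.0, whereas UNC13A, which primes synaptic vesicles, had 4.11. Their naïve ranks were also lower, with a list median of 62.6 beside 86.3 for the ubiquitin list. For 8 matrix and contractile genes with a region, out of 13, the median was -13.7 and 6 (75%, beside 66.8%) ranked lower in all 4. CALR, a calcium-binding chaperone named separately, overlapped, with 90.8 and 95.7 in naïve cells, 78.6 and 70.3 in R1 cells, and 79.6 and 91.9 in R2 cells. ICAM1, an adhesion receptor of that list with a promoter peak in 5 lists, had -30.7 and FBN3, a fibrillin, -31.9.

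Zinc finger genes varied most among themselves. KRAB zinc finger proteins repress transposable elements, and their genes lie here in clusters. Of 53 listed, 33 had a promoter region in all lists, and their shifts ran from -40.9 at ZNF558 to 34.6 at ZNF442. The mean rank was lower in resistant cells in 24 of the 33, beside 95.6% of the segment's genes and 44.3% of genes over the genome. All 4 resistant libraries were lower in 11 (33.3%, beside 66.8%) and higher in 1, ZNF878, and the median was -15.3. ZNF490 and ZNF791 have the same values and are counted for each. The same holds for ZNF625 and ZNF625-ZNF20, whose mean rank was higher in resistant cells. A promoter peak was present at 46 and 45 of the 53 in naïve cells, 51 and 51 in R1 cells, and 35 and 36 in R2 cells. R1 thus had promoter peaks at more of these genes than naïve cells although ranks of the shared regions were mostly lower. Olfactory receptor genes, which are silent outside sensory neurons, served as a low end: of 20, none had a promoter peak in all lists, 14 had none in any list, and the lists had 5 and 2 in naïve cells, 3 and 3 in R1 cells, and 0 and 0 in R2 cells.

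**Figure D5:**
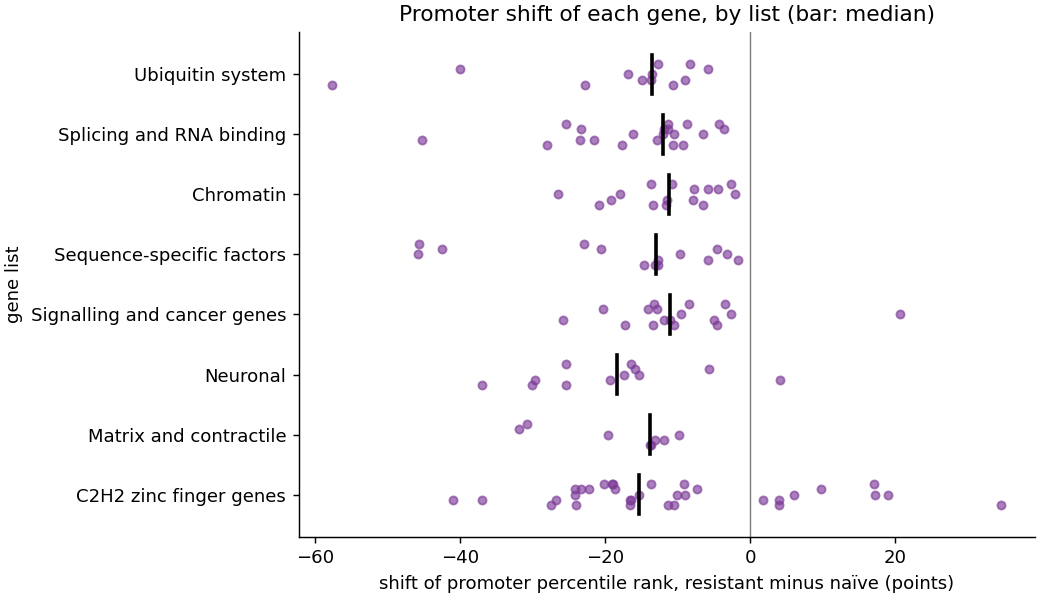
Each point is a gene whose merged promoter region has a peak in all 6 lists, placed by its shift of percentile rank, resistant minus naïve (horizontal axis), and black bars are the medians of the lists. All medians lie between -18.4 and -11, JAK3 is the highest outside the zinc finger list at 20.7, and zinc finger genes range from -40.9 to 34.6.

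In 6 genes of the segment (1.47%) the promoter region ranked higher in all 4 resistant libraries, beside 15.7% of genes over the genome. They are JAK3, RGL3, PRDX2 with THSD8 on 1 shared region, and ZNF878 with ENSG00000257355 on another, named after their values were seen. PRDX2, a peroxiredoxin that removes hydrogen peroxide, ranked 48.2 and 38.8 in naïve cells, 58.7 and 67.9 in R1 cells, and 53.7 and 51.8 in R2 cells. RGL3, a Ras effector, was weak throughout, with 6.1 and 3.42 in naïve cells, 18.3 and 12.7 in R1 cells, and 22.3 and 29.5 in R2 cells.

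The promoters with the best mean rank over all 6 libraries, and so high in each by choice, were at PRKACA, GATAD2A and KDM4B. The region at PRKACA, the catalytic subunit of protein kinase A (chr19:14117164-14118447), ranked 99.0 and 99.2 in naïve cells, 92.1 and 95 in R1 cells, and 97.9 and 98.2 in R2 cells. GATAD2A, a subunit of the NuRD complex (chr19:19385106-19386240), ranked between 93.7 and 98.5 in all libraries. KDM4B, a histone demethylase (chr19:4968521-4969309), whose summit is printed above with its SP and KLF match, ranked between 90.1 and 98.7. On merged regions GPX4, the peroxidase that guards against ferroptosis, took the place of KDM4B. These shifts were small in points, at -3.29, -2.23 and -3.09, but on the log2 pileup scale that of PRKACA was -0.45.

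The 3 strongest distal members were pieces of 1 domain in an intron of MED16, a subunit of the Mediator complex, at chr19:875166-880790. As 1 merged region it ranked 99.4 and 99.4 in naïve cells, 98.1 and 98.3 in R1 cells, and 98.6 and 98.6 in R2 cells. Its pileups were 117 and 81 tags for naïve cells, 339 and 230 for R1 cells, and 51 and 51 in R2 cells. The sequence there is a tandem repeat: around the 3 summits, 64.7 to 71.6% of the bases matched those 32 to 74 bp further on. The next strongest merged distal regions lay in an intron of SBNO2 (chr19:1139940-1145345) and 6674 bp from the start of CDC34 (chr19:523999-525572), and both were repeats as well, with 71.2 and 75.5% matching bases. The CDC34 region ranked 98.8 and 98.6 in naïve cells, 64.8 and 76.6 in R1 cells, and 99.2 and 96.7 in R2 cells, so R1 was lower there while R2 stayed at 96.7 or higher. Repeats were not common among the members. With a match of at least 60%, a limit set after the values were seen, 35 of the 654 distal members (5.35%) held one, beside 9.22% of all distal regions, but among the 20 strongest distal members 5 did. The repeat members shifted by -16.2 and the other distal members by -29.0. Whether reads were placed uniquely in the repeats was not tested.

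The lowest shifts were at small distal regions. The region in an intron of MYO9B, an unconventional myosin (chr19:17079628-17079827), ranked 87.8 and 87.5 in naïve cells, 5.37 and 11 in R1 cells, and 8.03 and 14.1 in R2 cells. Its pileups were 51 and 33 tags for naïve cells, 58 and 47 for R1 cells, and 8 and 9 in R2 cells, so the R1 counts were close to the naïve ones although the R1 background rates are higher. The summits of the overlapping peaks in the naïve and R1 lists were 466 to 580 bp away, so neighbouring summits are compared, and the merged region had a shift of -55.4 in place of -78.0. The region in an intron of DPP9, a serine protease that restrains the NLRP1 inflammasome (chr19:4712942-4713305), had -77.3, and -57.7 when merged. The region in a UTR of CARM1, an arginine methyltransferase (chr19:10916298-10916497), had -72.5, and -42.0 when merged. All 3 had every resistant library below both naïve ones under either definition, which their choice by the lowest shift makes likely.

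With merged regions, other places had the lowest shifts, and 2 of them are named after their values were seen. An intronic region of SH3GL1, an endophilin of endocytosis (chr19:4368937-4378545), had ranks of 92.7 and 92.6 in naïve cells, 24.2 and 29.6 in R1 cells, and 22.3 and 20.4 in R2 cells. An exonic region of GNA15, a G protein alpha subunit (chr19:3141684-3142781), ranked 78.5 and 78.4, then 3.70 and 3.60 in R1 cells, and 47.5 and 11.7 in R2 cells. Neither region overlapped between groups, which their choice by the lowest shift makes likely.

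Regions that ranked higher in resistant cells were few, and some depended on how regions were joined. The region printed above in an intron of ZNF846 (chr19:9785425-9785863) ranked 12.8 and 12.1 in naïve cells, 35.6 and 21.4 in R1 cells, and 58.5 and 84.7 in R2 cells, a shift of 37.6 that stayed at 31.4 when merged. In contrast, the regions at SUGP2 (chr19:19032453-19032668, 37.6) and at MAP2K2 (chr19:4122011-4122210, 32.7) had shifts of -10.4 and -14.1 when merged. The ZNF442 promoter, the highest merged shift at 34.6, ranked 3.63 and 3.42 in naïve cells, 60.7 and 43.1 in R1 cells, and 47.5 and 1.16 in R2 cells, where the second R2 library was below both naïve ones.

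Some naïve peaks had no counterpart in the deeper R1 lists. Of 6269 peaks of the second naïve library in the segment that overlapped a peak of the first, 183 (2.92%, Wilson interval 2.53 to 3.37%) overlapped no R1 peak, beside 1.01% of 89795 over the genome. With a −log10 q of at least 5 the shares were 1.25%, beside 0.811%, and with no R1 peak within 500 bp 1.16%, beside 0.668%. The segment held 20.2% of all such peaks, 11.5% with the stricter q and 12.2% with the 500 bp, and 35 of its 183 were at promoters. They were weak, with 7 to 18 tags and a median of 10, which scaled to the depth of the first R1 library is a median of 58.8 tags, where 18 sufficed for a peak. In 179 of the 183 there was also no R2 peak, but the R2 lists held only 2471 and 2683 peaks of the segment. A missing R2 peak was common there: of the segment's joined regions 43.7% were in naïve and R1 cells without R2, beside 19.6% in all 3 types. The count rests on all 4 lists: it was 496 without the first naïve library, 1215 without the second, 526 without the first R1 library and 257 without the second. The strongest were in an intron of SHC2, an adaptor of neuronal receptor kinases (chr19:457736-458191, 18 tags), in an intron of ZBTB7A, a zinc finger repressor (chr19:4056902-4057120, 17 tags), and 6437 bp from MISP, an actin-bundling protein of the spindle (chr19:764357-764720, 16 tags).

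When peaks were joined over all lists, the segment had 8547 regions. Of these 17.4% were found in naïve cells only, beside 2.63% over the genome, and 18.6% in R1 only, beside 67.1%. Regions shared by naïve and R1 cells made up 43.7%, beside 15.7%, and regions in all 3 cell types 19.6%, beside 11.8%. R1 has the highest background rates, whose part in these shares was not tested.

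Some open stretches were wide. The widest in both R1 lists covered 20.8 and 20.9 kb at STK11 and CBARP, and the widest of the first naïve library, at 19.6 kb, was there too. A stretch at ISYNA1 and SSBP4 was 19.2 and 12.1 kb wide in naïve cells and 18.4 and 18.5 kb in R1, and one over KLF16 15.1 and 15.3 kb in naïve cells and 15.3 and 15.1 kb in R1. In R2, which has the lowest background rates, no peak of the segment was wider than 3.12 kb. The longest stretch without a peak in any list was 102 kb and holds the olfactory receptor genes OR7A10, OR7A17, OR7A5 and OR7C1. In R2 the longest gaps, 444 and 458 kb, lay from 9.3 to 9.8 Mb over zinc finger genes that include ZNF121, ZNF266, ZNF426, ZNF560, ZNF561 and ZNF562.

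Motif letters were searched within 50 bp of the summits on both strands. At promoter members the shares were close to those of all compared promoters: the SP and KLF letters GGGCGG occurred in 39.0%, beside 38.3%, the ETS letters CCGGAAG in 4.32%, beside 5.03%, and the CTCF core AGGGGGC in 7.98%, beside 8.47%. At distal members GGGCGG occurred in 19.3%, beside 11.6% of all distal regions, and AGGGGGC in 9.63%, beside 5.96%. Distal members had a median GC content of 64.3%, beside 60.7%, and with all regions weighted to that content the backgrounds were 16.6 and 7.02%. The TEAD letters GGAATG occurred in 2.75%, beside 7.28% (4.15% weighted), and the AP-1 letters TGANTCA in 3.98%, beside 6.0% (3.78% weighted). The E-box letters CACGTG, in 2.75% beside 2.71%, were no more frequent than elsewhere. NRF1 (GCGCATGCG) and RFX (GTTGCCATG) letters occurred in at most 5 promoter and 3 distal members each. A CTCF core followed by GG also holds an SP and KLF match. These are matches of letters in these windows and were not tested as sites.

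R1 and R2 could be tested against each other. With limma on the ranks of all 36449 regions and Benjamini-Hochberg adjustment, 182 of the 1418 members (12.8%) passed an adjusted p of 0.05, beside 11.2% of all regions. Of these 75 were higher in R1 (5.29%), beside 5.25%, and 107 lower (7.55%), beside 5.98%. The share higher in R1 is the background share. The share lower in R1 is above it in this setting, more so with ranks adjusted for GC content (8.82%, beside 4.85%), with a −log10 q of at least 5 (8.70%, beside 5.79%) and without the weakest regions by mean rank (11.3%, beside 7.34%). With ranks turned into normal scores it was near the background (6.77%, beside 6.47%). It was also near the background when either naïve library was left out, and the total share called was then below that of all regions. The median difference of R1 minus R2 was -7.55 over the members, beside -1.85 over all regions and -7.78 on the rest of chromosome 19. With merged regions 25 of 942 (2.65%) passed, beside 2.68%, with 4 higher (0.425%), beside 0.464%, and 21 lower in R1 (2.23%), beside 2.22%. The excess of calls lower in R1 was thus absent with merged regions. Leaving out 1 library gave between 11 and 249 called members, the fewest without the first R1 library (11, or 0.776%, beside 0.417% of all regions) and without the second (19, or 1.34%, beside 0.804%). The 249 without the second R2 library are 17.6%, beside 14.6%.

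Among the calls lower in R1, a region in an intron of ARHGEF18, a guanine nucleotide exchange factor (chr19:7450383-7451110), ranked 34.8 and 31.4 in R1 and 91.8 and 95.3 in R2, with 98.5 and 98.1 in naïve cells. The difference was -60.5 ± 5.65 (SE, limma adjusted p = 0.0147), and -45.3 ± 4.61 when merged (adjusted p = 0.0220). R2 was thus close to naïve cells there and R1 was not. The promoter region of DUS3L, a tRNA dihydrouridine synthase (chr19:5787070-5787300), ranked 58.4 and 60.7 in R1 and 95.6 and 97.9 in R2, a difference of -37.2 ± 4.24 (limma adjusted p = 0.0156, and 0.0291 merged). The promoter of AKAP8L, a nuclear RNA-binding protein (chr19:15418627-15419423), ranked 68.5 and 69.6 in R1 and 96.0 and 92.1 in R2, a difference of -25.0 ± 2.96 (limma adjusted p = 0.0156, and 0.0364 merged).

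The calls higher in R1 with the smallest p did not keep their difference when regions were merged. They are pieces of wide domains at MED16 (chr19:875252-875589, 49.9 ± 4.42), near REXO1 (chr19:1851369-1851647, 82.3 ± 8.65) and at ZBTB7A (chr19:4063313-4063560, 78.9 ± 8.39), with limma adjusted p of 0.0147 each. In R1 and naïve cells the piece takes the rank of the whole domain, a peak that 5 to 11 members share. In R2 it has a small peak of 8 to 12 tags, with 1 or at most 2 members on it. The merged differences were -0.41, -2.82 and 1.07 (limma adjusted p = 0.870, 0.417 and 0.796).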

How the data were processed

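The 6 lists were deposited as peaks called in each library by the authors with MACS2 2.2.7.1, at a q of 0.01, after alignment with BWA, removal of duplicates with Picard 1.65 and SAMtools 1.3.1, and a shift of read ends for Tn5. Tool versions are from the submitters' processing notes. The fold enrichment deposited for each peak is a ratio over 1 background rate per list, and the −log10 of p and of q are as the authors' peak caller gave them. From fold and p the whole number of tags at the summit and the background rate were recovered. The methods name hg19 and the notes both hg19 and hg38, and the coordinates fit hg38, which was used with GENCODE 44. The members, gene lists, motifs and named genes were chosen with earlier results of these data known.

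Genes named with all values are a list of 17, the 3 strongest promoter and distal members, the 3 with the largest shift each way, and the 3 with the smallest p each way between R1 and R2. A promoter lies within 1000 bp of a start. limma 3.58.1 (lmFit, eBayes with trend) was fitted to the ranks of all regions in all 6 libraries and Benjamini-Hochberg adjusted over all regions at 0.05. It was tested on simulated data with equal spread in all libraries. In the real lists the median difference within a pair was 10.5 points for naïve cells, 4.47 for R1 and 13.6 for R2. The simulation therefore cannot show how the calls between R1 and R2 behave with unequal spread. GC content was taken over 250 bp either side of the summit. Repeats were sought as identity of the 151-bp window with itself at 10 to 75 bp. Python 3.11.15, pandas 2.3.3 and R 4.3.3 were used. Reads and the authors' merged peaks were not used here. Some named items are not reported here.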

Additional observations from a re-analysis of the deposited data

Results flagged for a closer look

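The 6 regions below differed between the resistant types R1 and R2 by a test of the difference (limma, adjusted over all regions), the 3 smallest p in each direction among the members, with values as rank points of R1 minus R2. Lower in R1 were the regions at ARHGEF18 with -60.5, at DUS3L with -37.2 and at AKAP8L with -25. In these 3 both R1 libraries lay below both R2 and both naïve libraries, each region had 1 or at most 2 members on its peaks, and the merged differences of -45.3, -27.9 and -16.2 passed the test too. Higher in R1 were pieces of wide domains at MED16 with 49.9, near REXO1 with 82.3 and at ZBTB7A with 78.9. In these 3 the R1 and naïve libraries share 1 wide peak over 5 to 11 members, and the merged differences of -0.41, -2.82 and 1.07 did not pass.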

How the results depend on the processing

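Of 107 alternatives, 68 kept their direction and moved less than the spread between libraries, or, for counts, stayed within 1.5 times. With merged regions the shift was -22.8 for R1 and -26 at distal members. Requiring 0.5 of each region to be shared gave -20.4, -22.8 for R1, -17.4 for R2 and -19.7 at distal members. Of the 59 members left, 34 were below in all resistant libraries. Between R1 and R2, 4 were called (6.78%, beside 8.98% of all regions). With a −log10 q of at least 5, R2 had -18.9, 480 of 862 members were below, 106 were called and 56 naïve peaks lacked an R1 peak. Summits within 250 bp, an alternative chosen after seeing the data, gave -19.9, -22 for R1, -18.3 for R2 and -23.1 at distal members. Of 441 members, 281 were below and 13 were called between R1 and R2 (2.95%, beside 3.21%). No share over all regions is given beside the members below under these alternatives, so the counts show no excess by themselves. On the log2 pileup scale the shifts were -0.54, -0.66, -0.40, and -0.49 at promoter and -0.58 at distal members. As percentiles among all peaks of a list they were -15.6, -12.5 at promoter and -18.5 at distal members, with 0.838 for R1, the 1 reversal, and -35.1 for R2. On that scale the shift over all compared regions was 7.01 for R1 and -15 for R2, since the lists differ in length. The top 10000 peaks gave a difference of -2.86 percentage points in the segment's share, against -3.84. With no R1 peak within 500 bp, 73 naïve peaks were left.

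Leaving out 1 library gave a difference in share of -4.19 to -3.49 points, 11 to 249 members called between R1 and R2, 803 to 983 members below and 257 to 1215 naïve peaks without an R1 peak, the last without the second naïve library, when 1 list is no longer required to agree. The count of members below could only stay at 791 or rise when a library was left out, since fewer libraries had to agree. No share over all regions is given beside it, so its range shows no excess by itself. The shift stayed between -25.7 and -23.8. The replicate numbers are not said to pair libraries. Deviations of same-numbered libraries correlated by 0.020, -0.020 and 0.010 over regions, so no shared effect on the ranks was seen. These values cannot show whether same-numbered libraries were handled together. With the replicate block 125 members were called (8.82%, beside 7.58% of all regions) in place of 182, and with merged regions and the block, added after seeing the data, 9 (0.955%, beside 1.37%) in place of 25. R2 ranks rest on few tags, with 6 the lowest called.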
